A study of Mus musculus with 2 samples.

Results

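The 5 genes described here are Gadd45a, Gadd45b, Gadd45g, Btg1 and Btg2, taken by name from the 32285 genes of each deposited matrix. All 5 were present in both matrices. The study collected single cells from the peripheral retina of mouse embryos at E13.5, a stage at which the retina holds dividing progenitors, cells that have just started neuronal differentiation and the first neurons. The ciliary margin zone, the rim of the optic cup that later forms ciliary body and iris and also gives rise to neurons, was part of the tissue. There was 1 library from a pigmented and 1 from an albino background, each from optic cups pooled from 3 embryos. Both carried the α-Cre driver, which is active in the peripheral retina, and a TdTomato reporter, and cells were sorted for TdTomato after papain dissociation. The strain label is Tyrc2j for the library titled pigmented and Swizz ICR for the library titled albino. The first of these labels is the name of a known albino allele of the tyrosinase gene, so title and strain label disagree for the pigmented library, and the groups are called by their titles here. The series' title names cyclin D2, neurogenic output of the ciliary margin and albinism as its subject.

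GADD45 proteins are small acidic proteins first described as induced by growth arrest and DNA damage. They bind PCNA, the kinase inhibitor p21 (Cdkn1a), the CDK1 and cyclin B1 complex and the stress kinase kinase kinase MAP3K4 (MEKK4), and they have been linked to active DNA demethylation. BTG1 and BTG2 are antiproliferative proteins of the BTG/TOB family that bring the CCR4-NOT deadenylase to messenger RNAs and also bind the arginine methyltransferase PRMT1. Btg2, also called Tis21, is known in the embryonic brain as a marker of progenitors in the division that yields neurons. In the retina, proneural factors of the bHLH class such as ATOH7 and NEUROG2 act as progenitors leave the cycle, and the ganglion cell is the first neuron to be made.

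On the GRCm38 build, Gadd45a lies at chr6:67035096-67037457 on the minus strand, Gadd45b at chr10:80930073-80932204 on the plus strand and Gadd45g at chr13:51846678-51848468 on the plus strand. Btg1 lies at chr10:96617006-96622809 on the plus strand and Btg2 at chr1:134075170-134079120 on the minus strand. An exon of the plus-strand gene E230016M11Rik overlaps an exon of Gadd45a. The strand setting of the counting was not stated in the labels or headers, so reads of these 2 genes may not be separable. The bases before the start of the 3 genes that were higher in neurogenic-like cells are printed because those genes shared that pattern. They come from RefSeq's promoter table on GRCm38.p6. The Gadd45g and Btg2 stretches end at the RefSeq start, which lies ahead of the gene start given above. The Gadd45a stretch ends at the gene start given above, 50 bases short of its RefSeq start, so 200 of its 250 bases are printed. Every CANNTG (the E-box core that bHLH factors bind) and every TGACGTCA (the palindromic cAMP response element) is in capitals. The latter is marked since Btg2 is known as an immediate-early gene.
Gadd45a, chr6:67037458-67037657, minus strand: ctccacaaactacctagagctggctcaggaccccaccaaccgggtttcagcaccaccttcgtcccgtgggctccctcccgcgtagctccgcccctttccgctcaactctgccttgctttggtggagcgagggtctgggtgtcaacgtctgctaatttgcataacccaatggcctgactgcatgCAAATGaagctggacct
Gadd45g, chr13:51846425-51846674, plus strand: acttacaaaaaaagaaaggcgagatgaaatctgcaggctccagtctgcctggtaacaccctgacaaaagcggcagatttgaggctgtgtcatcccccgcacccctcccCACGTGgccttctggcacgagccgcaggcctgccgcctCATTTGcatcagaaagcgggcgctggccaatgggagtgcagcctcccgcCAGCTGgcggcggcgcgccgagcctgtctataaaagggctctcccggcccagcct
Btg2, chr1:134079156-134079405, minus strand: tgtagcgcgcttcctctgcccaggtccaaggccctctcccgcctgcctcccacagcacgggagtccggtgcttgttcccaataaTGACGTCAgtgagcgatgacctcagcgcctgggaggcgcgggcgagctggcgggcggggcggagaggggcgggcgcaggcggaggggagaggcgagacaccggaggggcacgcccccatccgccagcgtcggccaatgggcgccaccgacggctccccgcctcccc
In the 250 bases before the RefSeq start, on both strands, CANNTG occurred 1 time for Gadd45a, 3 times for Gadd45g and 0 times for Btg2. Gadd45b held 1 CANNTG, also a CACGTG, 185 bases before its start, and Btg1 held 0. Of 32851 mouse promoter windows of that length, 66.2% held a CANNTG. The Gadd45g matches included 1 CACGTG, 142 bases before the start, and 1 CAGCTG, 55 bases before it, letters held by 6.02% and 13% of all windows. Btg2 was the only 1 of the 5 genes with TGACGTCA, 166 bases before its start, which 1.55% of all windows held. The CANNTG count therefore did not separate the 3 genes from the other 2, and a match is a description of the letters, not of a bound factor.

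The matrices held 6089 pigmented and 3676 albino barcodes, with 69965728 and 46271969 UMIs (unique molecular identifiers, each counting 1 captured RNA molecule). After filtering, 5711 and 3474 cells were kept, with a median of 10319 and 11194 UMIs. The libraries shared 6 barcodes. Cells with an Xist UMI and no UMI of a Y-linked gene made up 29.3% of the pigmented and 96.1% of the albino library, so the pools differed in sex as well as in strain. Cells fell into 22 clusters, of which 19 could be named from marker genes, and the gene lists used here were left out of the clustering. RPC-like (retinal progenitor) cells numbered 1951 pigmented and 1029 albino, CMZ-like (ciliary margin) cells 697 and 297, and neurogenic-like cells 1212 and 674. Retinal ganglion cell-like (RGC-like) cells numbered 552 and 691, photoreceptor-like cells 348 and 188, and amacrine- or horizontal-like cells 139 and 75. RGC-like cells were 9.67% of the pigmented and 19.9% of the albino library. The 10 neurogenic markers summed to 9610 and 9233 CPM (UMIs per 1000000 UMIs of the same cells) in neurogenic-like cells against 496 and 533 in RPC-like cells. In neurogenic-like cells the 9 mesenchyme markers summed to at most 3.37 CPM and the 9 macrophage markers to at most 1.05 CPM. The 12 RGC markers summed to 1959 and 2078 CPM there and to 109 and 170 CPM in RPC-like cells. Each group had 1 library, so no test of a condition or class was possible. Values below give the pigmented library first, brackets hold exact 95% intervals that cover counting error only, and a gene was compared in a contrast where its 2 sets of cells held at least 20 UMIs together.

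Gadd45a was the gene of the 5 with the steepest difference between RPC-like and neurogenic-like cells. Its neurogenic-like level was 1541 CPM (1520 to 1563) in the pigmented and 1466 CPM (1439 to 1494) in the albino library. Photoreceptor-like cells followed with 789.8 CPM (758 to 822) and 881 CPM (839 to 924), and amacrine- or horizontal-like cells with 814 CPM (761 to 870.2) and 616 CPM (555 to 681). The intervals of these 2 precursor classes overlapped in the pigmented library and not in the albino library. RGC-like cells held 205 CPM (195 to 215) and 149 CPM (142 to 156), RPC-like cells 53.2 CPM (50.1 to 56.4) and 60.03 CPM (55.7 to 64.6), and CMZ-like cells 20.8 CPM (18.1 to 23.9) and 15.3 CPM (11.8 to 19.5). The order of the 6 retinal classes was the same in both libraries apart from the photoreceptor-like and amacrine- or horizontal-like pair, and no other neighbours in it had overlapping intervals. Neurogenic-like cells held 29.0 times (27.3 to 30.8) that of RPC-like cells in the pigmented library and 24.4 times (22.6 to 26.4) in the albino library. CMZ-like cells held 0.392 times (0.337 to 0.455) and 0.254 times (0.194 to 0.329) the RPC-like level. Of the 5 members, Gadd45a and Gadd45b were 2-fold lower in CMZ-like than in RPC-like cells in the pigmented library and Gadd45a in the albino library, and 0 were higher. Of all genes 5.16% and 4.39% were lower by that fold and 4.78% and 3.66% higher. The pigmented Gadd45b value rested on 9 CMZ-like and 42 RPC-like UMIs.

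Gadd45a UMIs were spread over nearly every neurogenic-like cell. With each cell thinned to 5800 UMIs to set depth equal, 98.6% of pigmented and 98.9% of albino neurogenic-like cells had at least 1 Gadd45a UMI, and 43.4% and 40.3% had 10 or more. Among RPC-like cells 20.2% (18.35 to 22.2) and 18.8% (16.3 to 21.5) had a UMI, and none had 10 or more. Mesenchyme-like cells, which are not expected to share the retinal program, had a Gadd45a UMI in 13.4% (9.18 to 18.7) and 17.1% (10.9 to 24.9) of cells. The RPC-like and mesenchyme-like intervals of this share overlapped in each library. The mesenchyme-like level was 40.1 and 61.5 CPM, beside 53.2 and 60.03 CPM in RPC-like cells. The part of free RNA in the RPC-like share was not tested, and that share is not read as expression in progenitors. Atoh7, the proneural gene needed for ganglion cells, was set beside Gadd45a in the same classes. Its level was 7169 and 6996 CPM in neurogenic-like cells, 141 and 231 CPM in mesenchyme-like cells and 125 and 196 CPM in RPC-like cells. Gadd45a per Atoh7 UMI was 0.215 and 0.210 in neurogenic-like cells, 0.285 and 0.266 in mesenchyme-like cells, and 0.425 (0.396 to 0.456) and 0.306 (0.281 to 0.333) in RPC-like cells. It was 1.12 (1.02 to 1.24) and 1.41 (1.20 to 1.65) in amacrine- or horizontal-like cells, so there Gadd45a UMIs did not keep the ratio of neurogenic-like cells. Among RPC-like cells with an Atoh7 UMI 35.2% and 36.4% also had a Gadd45a UMI, against 17.1% and 14.8% of those without. With only RPC-like cells that had no Atoh7 UMI as the base, the neurogenic-like level of Gadd45a was 42.5 and 46.7 times as high.

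Gadd45g, the family member known in vertebrate embryos as a gene of cells that start neuronal differentiation, was also higher in neurogenic-like cells. It stood there at 128 CPM (122 to 135) and 113 CPM (106 to 121), against 19.1 CPM (17.3 to 21.1) and 19.0 CPM (16.6 to 21.7) in RPC-like cells. The ratio was 6.71 (6.003 to 7.51) and 5.95 (5.13 to 6.93). Photoreceptor-like cells held 109.9 CPM (98.4 to 122) and 88.1 CPM (75.2 to 103), amacrine- or horizontal-like cells 56.0 and 46.9 CPM, CMZ-like cells 11.4 and 10.7 CPM, and RGC-like cells 8.55 CPM (6.65 to 10.8) and 6.06 CPM (4.66 to 7.75). The neurogenic-like and photoreceptor-like intervals, and the CMZ-like and RGC-like intervals, overlapped in the pigmented library and not in the albino library. At equal depth a Gadd45g UMI was found in 26.3% and 25.7% of neurogenic-like, 34.3% and 34.8% of photoreceptor-like, 5.26% and 4.19% of RPC-like and 5.20% and 3.98% of RGC-like cells. In mesenchyme-like cells the share was 14.8% and 4.88%, and the level was 51.1 and 20.7 CPM, so the RPC-like and RGC-like shares did not exceed those of a non-retinal class. In RPC-like cells the gene was uneven. Cells with an Atoh7 UMI had a Gadd45g UMI in 11.4% and 8.67% of cases, against 4.02% and 3.17% of the others.

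Among the retinal classes Btg2 had its highest level in photoreceptor-like cells, at 774 CPM (743 to 806) and 688 CPM (651 to 726). Neurogenic-like cluster 16 alone, described below, stood above that level in both libraries. Neurogenic-like cells held 496 CPM (483 to 508) and 496 CPM (479.9 to 512), which is 4.66 times (4.44 to 4.90) and 5.18 times (4.84 to 5.54) the RPC-like level of 106 CPM (102 to 111) and 95.8 CPM (90.3 to 102). Amacrine- or horizontal-like cells held 127 CPM (107 to 150.2) and 102 CPM (78.2 to 130.3), CMZ-like cells 53.7 and 51.5 CPM and RGC-like cells 53.5 and 42.1 CPM. The intervals overlapped between amacrine- or horizontal-like and RPC-like cells, and between CMZ-like and RGC-like cells, in both libraries. A Btg2 UMI was found at equal depth in 96.9% and 96.2% of photoreceptor-like, 82.3% and 82.9% of neurogenic-like, 36.1% and 34.3% of RPC-like and 22.7% and 20.8% of RGC-like cells. Mesenchyme-like cells had one in 33.8% and 39.0% of cells and macrophage-like cells stood at 282 and 423 CPM, so Btg2 was not limited to the retina.

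Btg1 differed by less than 1.5-fold between progenitors and neurogenic cells. It stood at 175 CPM (169 to 180.4) and 160.1 CPM (153 to 168) in RPC-like and at 215 CPM (207 to 223) and 187 CPM (178 to 197) in neurogenic-like cells, a ratio of 1.23 (1.17 to 1.29) and 1.17 (1.09 to 1.25). Its highest retinal level was in amacrine- or horizontal-like cells, at 414 CPM (376 to 454) and 396 CPM (348 to 449), which is 1.93 and 2.12 times the neurogenic-like level. Photoreceptor-like cells held 229 and 171 CPM, CMZ-like cells 126 and 109 CPM and RGC-like cells 102 and 85.6 CPM. The photoreceptor-like and neurogenic-like intervals overlapped in both libraries. A Btg1 UMI was found at equal depth in 88.1% and 85.9% of amacrine- or horizontal-like cells, 67.1% and 58.1% of neurogenic-like cells and 61.1% and 57.5% of RPC-like cells.

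Gadd45b, known as the stress- and activity-induced member of the family, gave 229 and 160 UMIs in the whole libraries, the fewest of the 5. Its retinal levels were between 0 and 3.30 CPM in the pigmented and between 0.577 and 2.11 CPM in the albino library, and neighbouring retinal classes had overlapping intervals throughout. Amacrine- or horizontal-like cells of the pigmented library had 0 Gadd45b UMIs, which allows up to 3.44 CPM. Mesenchyme-like cells stood at 35.2 CPM (29.3 to 42.1) and 35.9 CPM (27.8 to 45.7), 17.3 and 20.2 times the RPC-like level of 2.04 and 1.78 CPM. Gadd45b and Gadd45g were 2-fold higher in mesenchyme-like than in RPC-like cells in the pigmented library and Gadd45b in the albino library, beside 13.3% and 11.6% of all genes, and 0 of the 5 were lower, beside 13.2% and 13.7%. They held 53.3% and 41.2% of all Gadd45b UMIs. Macrophage-like cells held 13.2 and 52.5 CPM, from 3 and 15 UMIs, and cells with pigment epithelium markers 20.6 and 20.5 CPM, so most Gadd45b signal in these libraries lay outside the retinal classes.

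**Figure D1:**
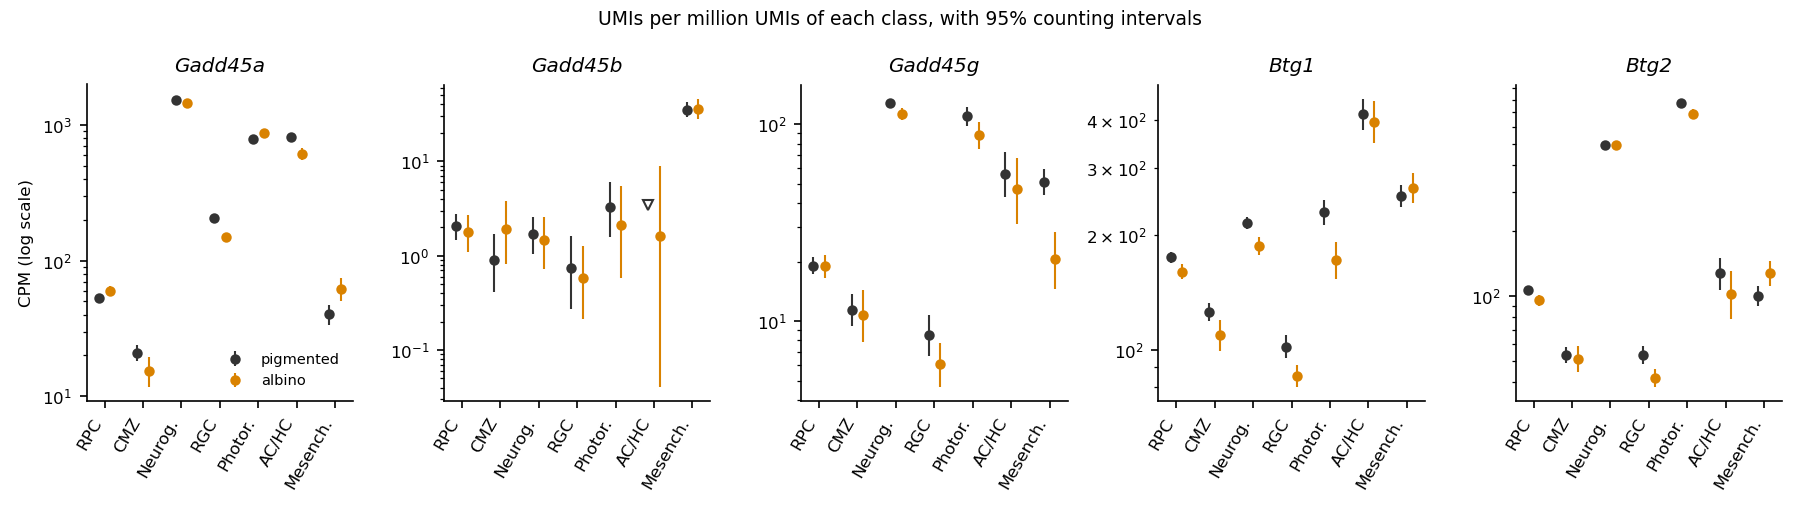
Level of each of the 5 genes, in CPM on a log axis, by cell class and library, with exact 95% counting intervals, and an open triangle where 0 UMIs gave only an upper bound. Among the classes drawn, Gadd45a is highest in neurogenic-like cells at 1541 and 1466 CPM and Btg2 in photoreceptor-like cells. Btg1 is highest in amacrine- or horizontal-like cells and Gadd45b in mesenchyme-like cells.

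Read as a contrast, 3 of the 5 genes (Gadd45a, Gadd45g and Btg2) were at least 2-fold higher in neurogenic-like than in RPC-like cells in each library, and 0 were 2-fold lower. Of all 13363 and 12493 genes compared, 8.22% and 7.84% were higher by that fold and 13.0% and 12.6% lower. Btg1 stayed under 2-fold. Gadd45b, with 21 neurogenic-like and 42 RPC-like UMIs in the pigmented and 11 and 21 in the albino library, gave ratios of 0.825 (0.464 to 1.42) and 0.811, and its interval in the pigmented library included both directions.

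All members that could be compared were lower in RGC-like than in neurogenic-like cells. Gadd45g was 15.02 times lower in the pigmented and 18.7 times lower in the albino library, Btg2 9.26 and 11.8 times lower, Gadd45a 7.52 and 9.85 times lower, and Btg1 2.11 and 2.19 times lower. Gadd45b rested on 6 RGC-like against 21 neurogenic-like UMIs in the pigmented library, a ratio of 0.442 (0.146 to 1.13), and had too few UMIs for the comparison in the albino library. That made 5 of 5 and 4 of 4 compared members past a 2-fold decrease, against 16.3% and 15.2% of all genes. Btg1 was near the threshold. It was at 0.638 and 0.521 times with classes taken from marker scores, and pigmented Gadd45b was at 0.631 times with doublets kept, so neither call held in every setting. With classes from marker scores Gadd45a was at 0.263 times in the pigmented and 0.173 times in the albino library. Against RPC-like cells, RGC-like cells still held 3.86 and 2.48 times the Gadd45a level, while Btg2 was at 0.504 and 0.440 times, Gadd45g at 0.447 and 0.319 times and Btg1 at 0.584 and 0.534 times. Gadd45a was thus the only 1 of the 4 well-counted members with a higher level in RGC-like cells than in progenitors. In that contrast 1 of 5 members was 2-fold higher in each library, and 2 of 5 pigmented and 3 of 5 albino were 2-fold lower, beside 16.3% and 17.5% of all genes higher and 25.1% and 23.2% lower. The RGC-like Gadd45a per Atoh7 UMI, 0.183 and 0.189, was close to that of neurogenic-like cells, and the part of free RNA in the RGC-like level was not tested.

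The other precursor classes differed from RGC-like cells in the same direction. In photoreceptor-like over RGC-like cells Btg2 was 14.5 and 16.3 times higher, Gadd45g 12.9 and 14.5 times, Gadd45a 3.85 and 5.92 times and Btg1 2.25 and 2.003 times, so 4 of 4 compared members passed 2-fold in each library beside 14.5% and 14.0% of all genes. In amacrine- or horizontal-like over RGC-like cells Gadd45g was 6.55 and 7.74 times higher, Btg1 4.06 and 4.63 times, Gadd45a 3.97 and 4.14 times and Btg2 2.37 and 2.42 times, again 4 of 4, beside 10.9% and 11.8% of all genes. Against neurogenic-like cells, 0 members passed 2-fold in photoreceptor-like cells, where 10.0% and 9.16% of all genes were higher and 8.97% and 8.50% lower. Btg2 was 1.56 and 1.39 times higher there and Gadd45a was at 0.512 and 0.601 times. Amacrine- or horizontal-like cells held less Btg2 than neurogenic-like cells, at 0.256 and 0.205 times, less Gadd45g, at 0.436 and 0.414 times, and less Gadd45a, at 0.528 and 0.420 times. In that contrast 3 members in each library were 2-fold lower, beside 14.2% and 14.8% of all genes, and Btg1 was 2-fold higher in the albino library, beside 12.7% of all genes. The third member counted as lower in the pigmented library was Gadd45b, listed at 0 UMIs against 21. The upper bound given above for those 0 UMIs lay above the neurogenic-like level of 1.68 CPM, so its direction is not set.

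In single cells the genes differed in how many molecules they gave. Among neurogenic-like cells thinned to 5800 UMIs, at least 1 UMI of each of Gadd45a, Gadd45g and Btg2 was found in 23.7% and 23.5% of cells, and UMIs of 2 of these 3 genes in 60.2% and 60.6%. All 3 were found in 24.1% and 25.3% of photoreceptor-like cells, 1.87% and 1.83% of RPC-like cells, 1.67% and 0.765% of RGC-like cells and 0.302% and 0.364% of CMZ-like cells. Within neurogenic-like cells, those with a Btg2 UMI had a Gadd45g UMI in 29.3% (26.4 to 32.3) and 28.5% of cases, those without in 12.5% (8.26 to 17.9) and 12.04%. These shares pool clusters that differ in both genes, with both lowest in the cluster led by Gal and Dlx1, described below. Whether the genes go together in cells of a single cluster was not tested. Btg2 counts of 5 to 9 UMIs occurred in 37.8% and 32.3% of photoreceptor-like and in 19.2% and 20.9% of neurogenic-like cells.

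**Figure D2:**
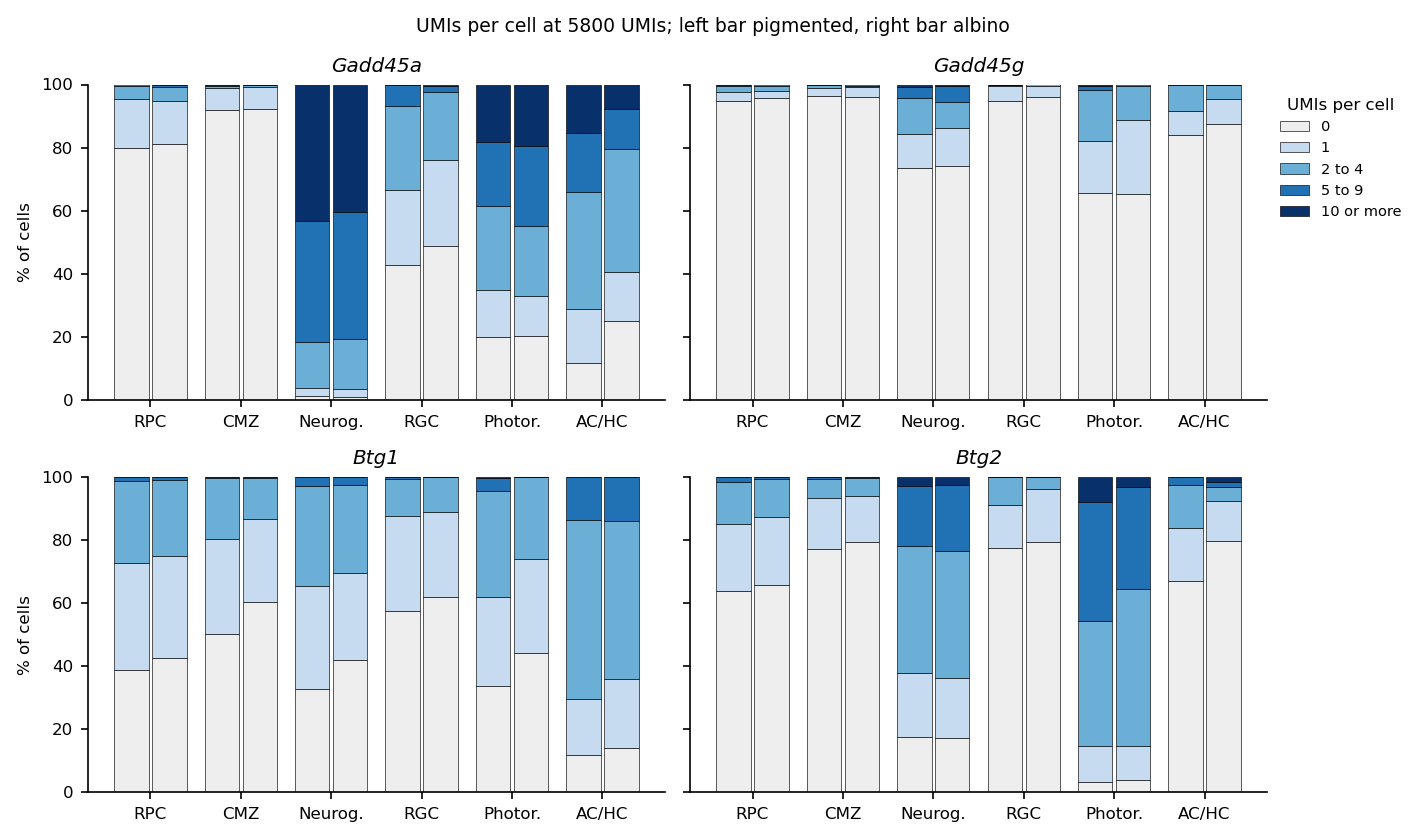
Percent of cells of each class with 0 or more UMIs of Gadd45a, Gadd45g, Btg1 and Btg2 after thinning each cell to 5800 UMIs, in stacked bars with the pigmented library on the left and the albino library on the right of each pair. Gadd45a reaches 10 or more UMIs in 43.4% and 40.3% of neurogenic-like cells and in none of the RPC-like cells.

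The 4 neurogenic-like clusters shared Gadd45a and differed in the other genes. Cluster 7 was led by Neurog2 and Sstr2 with many replication-dependent histone UMIs, cluster 8 by Phlda1 and Cck, cluster 16 by Onecut1, Otx2 and the Notch ligand Dll4, and cluster 2 by the neuropeptide gene Gal with the homeobox gene Dlx1. Gadd45a and Gadd45g were themselves among the leading genes of cluster 8. Cluster 2, with 491 of 1212 pigmented and 277 of 674 albino neurogenic-like cells, was named on weaker grounds. Its neurogenic marker score was 0.360, against 2.05, 1.26 and 2.48 in clusters 7, 8 and 16, and the RGC marker Pou4f2 was among its leading genes. Gadd45a stood at 1549 and 1574 CPM in cluster 7, 1613 and 1467 in cluster 8, 1585 and 1454 in cluster 16, and 1479 and 1387 in cluster 2. Btg2 was at 656 and 699.9 CPM in cluster 7, 483 and 469 in cluster 8 and 833 and 819 in cluster 16, but at 291 and 275 CPM in cluster 2. Gadd45g was at 192 and 157 CPM in cluster 7, 181 and 134 in cluster 8 and 181 and 203 in cluster 16, but at 37.7 and 48.4 CPM in cluster 2. Btg1 had the opposite arrangement, with 246 and 205 CPM in cluster 2 and 150.3 and 126 CPM in cluster 16. The summed level of 18 G2/M genes was 117 and 131 CPM in cluster 2, against 4017 and 4663 CPM in cluster 8, 7133 and 7124 in cluster 7 and 7451 and 8662 in cluster 16.

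Few G2/M UMIs did not go with low Btg2 in every cluster. In the photoreceptor-like clusters 11 and 17 the G2/M sum was 172 and 315 CPM and 244 and 303 CPM. Btg2 nevertheless stood there at 752 and 688 CPM and at 829.7 and 688 CPM. Gadd45g stood at 88.2 and 78.0 CPM in cluster 11 and 165 and 121 CPM in cluster 17, while Gadd45a was at 1010 and 1086 CPM in cluster 11 and 228 and 213 CPM in cluster 17. Both RGC-like clusters had few G2/M UMIs and low Btg2. Cluster 3 held 82.8 and 63.0 CPM of Btg2 and 320.2 and 229.8 CPM of Gadd45a, cluster 6 held 18.1 and 22.3 CPM of Btg2 and 65.5 and 72.1 CPM of Gadd45a. Among the RPC-like clusters Gadd45g was highest in cluster 4 at 40.1 and 44.1 CPM and lowest in cluster 1 at 8.44 and 4.21 CPM, and Gadd45a was also highest in cluster 4 at 73.5 and 84.4 CPM.

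**Figure D3:**
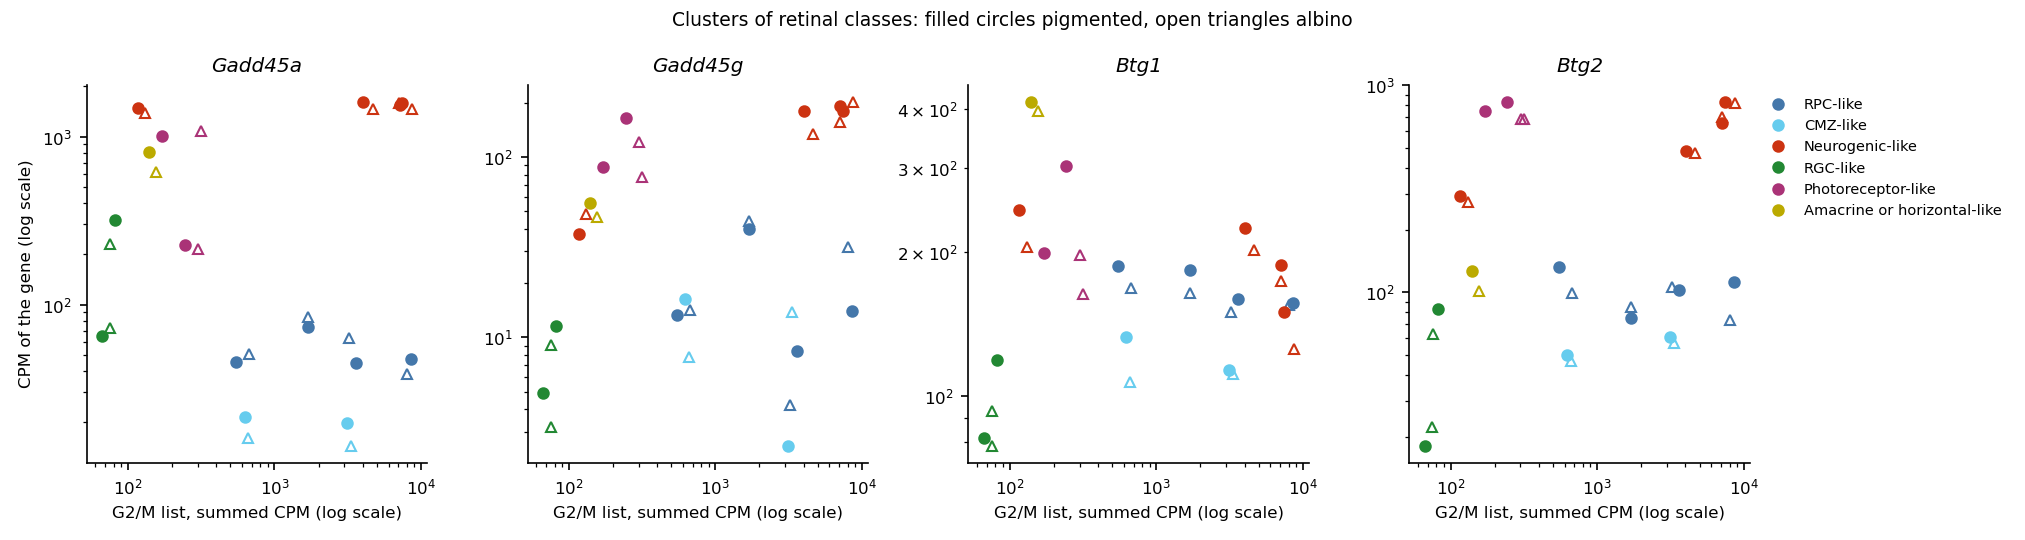
Level of Gadd45a, Gadd45g, Btg1 and Btg2 in each cluster (CPM, log axis) against the summed level of the 18 G2/M genes (CPM, log axis), coloured by class, with filled circles for the pigmented and open triangles for the albino library. Neurogenic-like clusters keep Gadd45a between 1387 and 1613 CPM over the whole G2/M range, whereas Btg2 is 291 and 275 CPM in the neurogenic-like cluster with 117 and 131 CPM of G2/M genes.

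To set the genes against the cycle in single cells, RPC-like and neurogenic-like cells at equal depth were each split into quartiles of their summed S phase and G2/M UMIs. The quartiles are ranges of a score, not cell types. In neurogenic-like cells Btg2 gave 1594, 2484, 3463 and 3890 UMIs per 1000 cells from the lowest to the highest quartile in the pigmented library and 1475, 2500, 3911 and 3879 in the albino library. Gadd45g gave 240.3, 459, 1088 and 1127 UMIs per 1000 cells in the pigmented and 247, 475, 911 and 1115 in the albino library. Both genes were thus lower where cycle UMIs were few. The lowest over the highest quartile was 0.410 (0.366 to 0.458) and 0.380 (0.325 to 0.443) for Btg2 and 0.213 and 0.221 for Gadd45g. Gadd45a gave 8710, 9894, 9057 and 9551 UMIs per 1000 cells in the pigmented and 8272, 9677, 8834 and 9688 in the albino library, with a ratio of 0.912 and 0.854. Btg1 gave 1.21 and 1.33, under 1.5-fold, and 1 and 0.816 with the members and lists kept in the clustering, so it had no settled direction. Of the members, Btg2 and Gadd45g were lower by at least 1.5-fold in the lowest quartile in each library, beside 20.8% and 21.4% of all genes. Apart from albino Gadd45g, these ratios rested on the Gal and Dlx1 cluster. Without it, on the log2 scale, the lowest over the highest quartile was -0.06 and 0.17 for Btg2, and -0.04 and -1.004 for Gadd45g. Quartiles taken within single clusters gave Btg2 ratios of 0.850 and 0.706 in cluster 2, 1.02 and 1.02 in cluster 7, 1.12 and 1.43 in cluster 8 and 1.21 and 1.62 in cluster 16, so Btg2 had no common direction across the 4 clusters.

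In RPC-like cells Gadd45g had the opposite direction. It gave 272, 86.0, 58.8 and 79.4 UMIs per 1000 cells from the lowest to the highest quartile in the pigmented and 167, 142, 25.8 and 47.4 in the albino library. The lowest over the highest quartile was 3.42 (2.33 to 5.14) from 120 and 35 UMIs, and 3.53 (1.77 to 7.64) from 39 and 11 UMIs. It was the only member 1.5-fold higher in the lowest quartile of RPC-like cells, beside 9.42% and 8.86% of all genes. With classes taken from marker scores the pigmented ratio was 1.24, under the 1.5-fold threshold, and with at least 1000 genes per cell the albino ratio was 10.2. Gadd45a gave 0.880 and 0.9504, Btg2 0.854 and 1.17 and Btg1 1.40 and 1.20. In the pigmented library 219 of 394 RPC-like Gadd45g UMIs came from cluster 4, and in the albino library 104 of 224. Cluster 4 had 1700 and 1704 CPM of G2/M genes, cluster 1 had 3594 and 3232 and cluster 13 had 8599 and 7993. Cluster 0 had fewer still, 546 and 671 CPM. The cycle quartiles may therefore differ in cluster. Gadd45g ratios within single RPC-like clusters are not given, so a relation to the cycle within them is not shown.

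**Figure D4:**
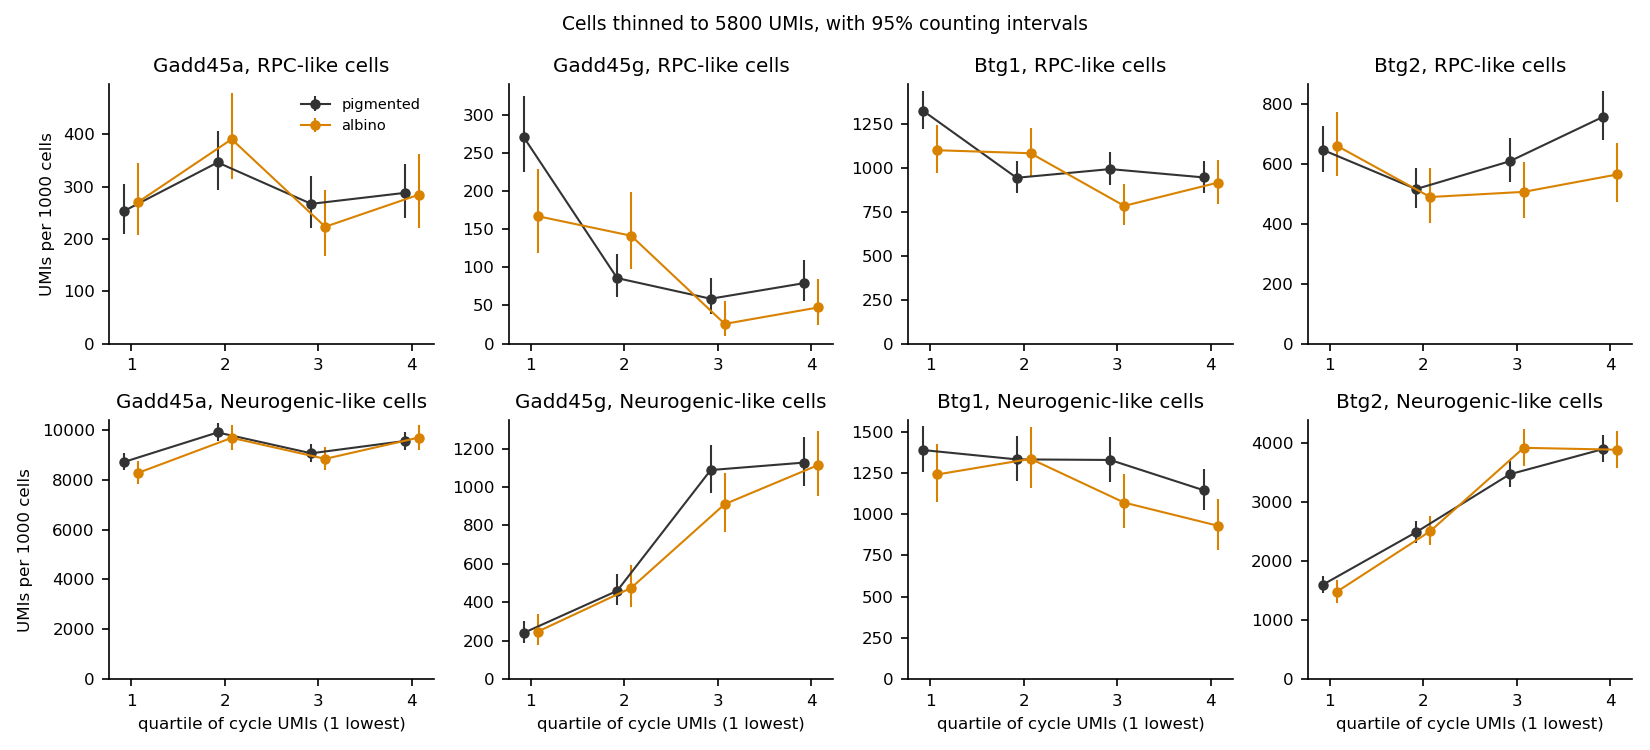
UMIs per 1000 cells of Gadd45a, Gadd45g, Btg1 and Btg2 by quartile of summed S phase and G2/M UMIs, in RPC-like and neurogenic-like cells thinned to 5800 UMIs, with exact 95% counting intervals. Btg2 and Gadd45g are higher with more cycle UMIs in neurogenic-like cells, at 1594 in the lowest and 3890 in the highest quartile and at 240.3 and 1127 in the pigmented library, while Gadd45g is at 272 and 79.4 in its RPC-like cells.

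A single cycle gene was also used, in the same cells and clusters. Among neurogenic-like cells with a UMI of Top2a, the topoisomerase that untangles DNA in G2 and mitosis, a Gadd45g UMI was found in 38% and 33.4%, against 15.3% and 17.3% of cells without. The mean Btg2 count was 3.65 and 3.89 UMIs in cells with Top2a and 2.11 and 1.89 in cells without. Top2a itself was at 16.1 and 13.4 CPM in cluster 2 and at 424 to 1715 CPM in the other 3 neurogenic-like clusters, so cells with and without it lie largely in different clusters, and the Btg2 and Gadd45g values add nothing independent to the quartiles. The mean Gadd45a count was 9.27 and 9.32 against 9.33 and 8.89. Gadd45a was thus found at like levels in neurogenic-like cells with and without this mitotic transcript.

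Btg2 and several immediate-early genes are known to respond to the same stimuli, so Btg2 was also set against a summed immediate-early list. In RPC-like cells the quartile with the fewest immediate-early UMIs held 0.386 times (0.321 to 0.462) the Btg2 of the quartile with the most in the pigmented library and 0.392 times in the albino library. For neurogenic-like cells the ratio was 0.877 and 0.805. In RPC-like cells Gadd45g had the opposite direction at 3.23 and 2.17, as did Gadd45a at 1.81 and 1.67, and Btg1 gave 0.930 and 0.949. Cluster 4, highest in Gadd45g and Gadd45a among RPC-like clusters, also had their lowest immediate-early sum, 902 and 690 CPM. Immediate-early quartiles may thus differ in cluster, and ratios within single RPC-like clusters are not given here. RPC-like cells with a Fos UMI had a Btg2 UMI in 40.1% and 40.2% of cells, against 27.4% and 26.0% of the others. The immediate-early genes as a list were lower in neurogenic-like than in RPC-like cells, with 13 of 15 and 11 of 14 compared genes past 2-fold and a list median of -1.69 and -1.63 on the log2 scale, against -0.08 and -0.06 over all genes. Fos itself was at 0.223 and 0.224 times. The Btg2 contrast between those classes therefore ran opposite to the immediate-early list, and the part of immediate-early induction in the RPC-like Btg2 level was not tested.

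Most genes of the partner lists stayed under 2-fold between RPC-like and neurogenic-like cells. Of the other BTG/TOB genes 0 of 3 compared passed 2-fold, with a median of 0.05 and 0.04 on the log2 scale, and of the 12 CCR4-NOT, poly(A)-binding and Prmt1 genes 0 passed, with a median of 0.05 and 0.02. Prmt1, the methyltransferase that BTG proteins bind, was at 1.39 and 1.43 times. Of 12 compared GADD45 partners 1 was higher and 1 lower in the pigmented library, and 1 was higher and 2 lower in the albino library. The p21 gene Cdkn1a, a target of p53 and partner of GADD45 proteins, was 2.91 and 1.71 times as high in neurogenic-like cells. It passed 2-fold in the pigmented library only, so the partner counted as higher was a different gene in each library. Pcna, the replication clamp that GADD45 proteins bind, was at 0.562 and 0.573 times. Of the p53 targets 2 were higher and 2 lower of 14 in the pigmented library, and 1 higher and 2 lower of 13 in the albino library, with medians of 0.09 and -0.03, near the shares of all genes in that contrast (8.22% and 7.84% higher, 13.0% and 12.6% lower). Of 5 compared Cdk inhibitors 1 was higher in each library, with medians of 0.62 and 0.77. In the pigmented library it was Cdkn1a, and in the albino library, where Cdkn1a stayed under 2-fold, a different gene.

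Cycle lists gave the setting of these values. Between neurogenic-like and RPC-like cells 8 of 18 and 9 of 18 S phase genes and 4 of 12 G1/S genes in each library were 2-fold lower, beside 13.0% and 12.6% of all genes, with Ccnd1, the D cyclin of progenitors, at 0.395 and 0.335 times. The G2/M list had 0 of 18 genes past 2-fold in the pigmented and 4 of 18 higher in the albino library, with medians of 0.41 and 0.66, and Top2a was at 1.28 and 1.49 times. In RGC-like over neurogenic-like cells each library had the whole G2/M list (18 of 18) 2-fold lower, with medians of -5.41 and -5.59, and likewise 18 of 18 S phase genes, with medians of -2.30 and -2.33, beside 16.3% and 15.2% of all genes. Btg3, another antiproliferative member of the family, was at 0.199 and 0.214 times in RGC-like over neurogenic-like cells, and no other of the 3 compared relatives passed 2-fold. Among the Cdk inhibitors Cdkn2d (p19) was at 2.04 and 1.99 times and Cdkn1c (p57) at 1.68 and 1.77 times. Cdkn1b was lower, at 0.839 and 0.845 times, and Cdkn1a differed in direction between the libraries, at 0.544 and 1.49 times.

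The genes whose levels followed each member most closely were ranked by the Pearson correlation of log2(CPM + 10) over the 18 clusters with at least 50 cells in each library, among 10057 genes. These are correlations over clusters of the same libraries, given as a description. For Gadd45a they were Fam110a with a mean r of 0.965, Hnrnph3 with 0.955, Atoh7 with 0.951, the Notch-modifying Mfng with 0.949 and the bHLH gene Bhlhe22 with 0.949. Fam110a gave 295 and 256 CPM in neurogenic-like and 24.5 and 25.1 CPM in RPC-like cells. For Btg2 they were Qsox1 with 0.921, the adhesion gene Jam2 with 0.919, Bche with 0.914, Zbtb18 with 0.906 and the bHLH gene Neurod1 with 0.904. Neurod1 stood at 1177 and 982 CPM in photoreceptor-like and 429 and 348 CPM in neurogenic-like cells. For Gadd45g they were Qsox1 with 0.895, Btg2 itself with 0.894, Zbtb18 with 0.886, Rbpj, the DNA-binding partner of Notch, with 0.879, and Jam2 with 0.878. Btg1 had weaker likenesses, led by Hif1an with 0.802 and Cog5 with 0.801, followed by Dhx40, Arhgap42 and Arl14ep. Gadd45b had too few UMIs to rank. Between members, r was 0.877 and 0.912 for Gadd45g with Btg2, 0.769 and 0.803 for Gadd45a with Btg2 and 0.769 and 0.785 for Gadd45a with Gadd45g.

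No member differed by 1.5-fold between the libraries over all cells. Over all cells the albino level relative to the pigmented level was 0.929 (0.911 to 0.947) for Gadd45a, 1.01 for Gadd45b, 0.812 for Gadd45g, 0.814 for Btg1 and 0.875 for Btg2. Of the 5 members 0 passed 1.5-fold in either direction, while 5.77% of all genes were higher and 4.56% lower by that fold. In neurogenic-like cells the ratio was 0.951 for Gadd45a, 0.882 for Gadd45g, 0.872 for Btg1 and between 0.960 and 1.04 (its interval) for Btg2, again with 0 of 5 past the fold, beside 2.07% of all genes higher and 3.93% lower. In RPC-like cells it was 1.13 for Gadd45a, 0.993 for Gadd45g, 0.917 for Btg1 and 0.901 for Btg2, with 0 of 5 past the fold, beside 2.33% higher and 3.37% lower. The RPC-like Gadd45g value joined 0.499 (0.265 to 0.893) in cluster 1, from 16 albino and 49 pigmented UMIs, and 2.24 (1.42 to 3.54) in cluster 13, from 44 and 39 UMIs. The immediate-early list summed to 1679 CPM in pigmented and 1249 CPM in albino RPC-like cells, and its part in the Btg2 ratio was not tested.

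In RGC-like cells Gadd45a stood at 0.726 (0.677 to 0.779), Gadd45g at 0.709, Btg2 at 0.787 and Btg1 at 0.839, with 0 of 4 compared members past 1.5-fold, beside 3.26% of all genes higher and 3.59% lower. The Gadd45a ratio was 0.718 in RGC-like cluster 3 and 1.10 in cluster 6. In CMZ-like cells, the tissue in which the study placed its question, Gadd45a was at 0.733 (0.545 to 0.973), Gadd45g at 0.941, Btg1 at 0.866 and Btg2 at 0.960, with 0 of 4 past the fold, beside 3.75% higher and 4.49% lower. The Gadd45g value joined clusters that differed in opposite directions, with a ratio of 0.477 in cluster 5 and 5.57 in cluster 12, the latter from 28 albino and 9 pigmented UMIs. In photoreceptor-like cells the ratio was 1.12 for Gadd45a, 0.802 for Gadd45g, 0.749 for Btg1 and 0.889 for Btg2, with 0 of 4 past the fold, beside 4.44% of all genes higher and 6.65% lower. In amacrine- or horizontal-like cells it was 0.756 (0.669 to 0.854) for Gadd45a, 0.837 for Gadd45g, 0.957 for Btg1 and 0.802 for Btg2, also with 0 of 4 past the fold, beside 7.32% higher and 9.17% lower. Ratios past 1.5-fold did occur outside the named retinal classes. In mesenchyme-like cells Gadd45g was at 0.405 (0.277 to 0.577), from 38 albino and 177 pigmented UMIs, and Gadd45a at 1.53 (1.19 to 1.98). Gadd45b, Btg1 and Btg2 stayed under that fold there. In the unnamed cluster led by G2/M genes Gadd45g was at 0.329 and Btg2 at 0.630. The share of all genes past the fold is not given for these cells. Strain, sex of the pool and library go with pigmentation here and cannot be told apart.

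**Figure D5:**
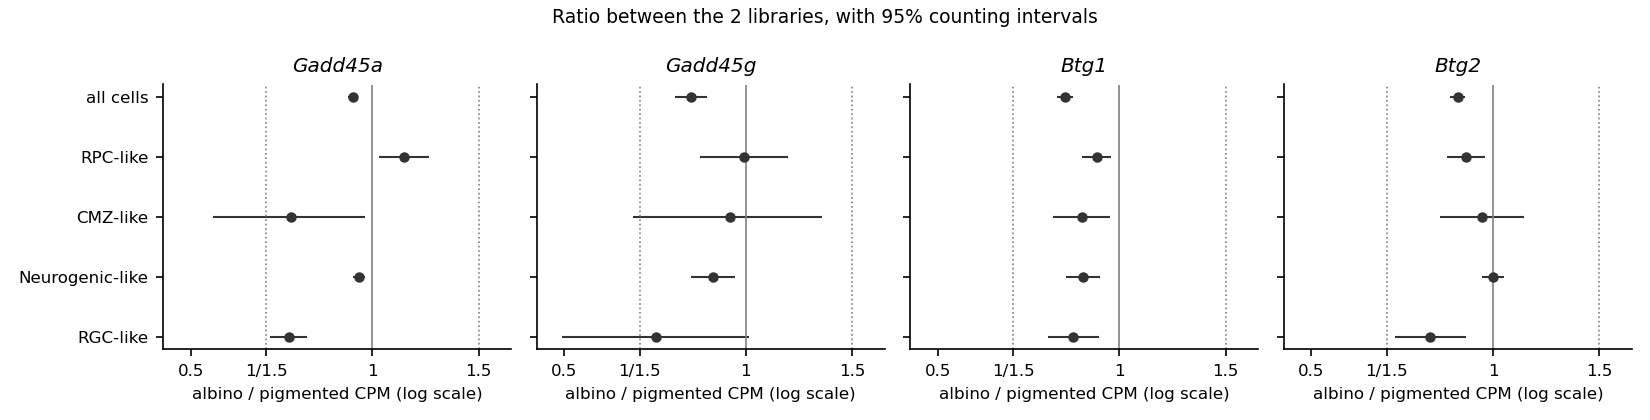
Albino over pigmented level of each gene (ratio on a log axis) over all cells and within cell classes, with exact 95% intervals that cover counting error only and lines at 1.5-fold in each direction. The well-counted genes lie between the lines in RPC-like, neurogenic-like and RGC-like cells, with the lowest value at 0.709 for Gadd45g in RGC-like cells.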

How the data were processed

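Single-cell libraries were made with a 10x 3' version 2 kit, per the labels' protocols. The authors deposited raw UMI counts per gene and barcode. Cell Ranger 2.1.1 and mm10 are named, per the submitters' processing notes, whereas version 5.0.1 is named per the file headers, and no strand setting is named. The count of 1 library per group allowed no test, so intervals cover counting error only and say nothing of the spread between embryos.

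Barcodes with under 500 genes or over 10% mitochondrial UMIs were removed. Scrublet doublets (172 pigmented, 39 albino), called with Scanpy 1.11.5, were also removed. Both libraries were clustered together with scikit-learn 1.9.0 and leidenalg 0.10.2 on 2000 variable genes, 30 components, 15 neighbours and Leiden resolution 1. The 5 genes, the gene lists and Ccnd2 (117 genes) were left out of the clustering. Clusters were named by marker score with a margin of 0.3 over the next class. Of the 22 clusters 3 stayed unnamed, 1 led by G2/M genes, 1 by crystallin genes and 1 of shallow cells. UMIs were summed per class and library. Ratios had conditional exact intervals, and genes needed 20 UMIs over both sides. Thinning to 5800 UMIs left out 546 pigmented and 387 albino cells. The scripts were tested on simulated data. The named genes were the 5 members, the 5 genes most like each by Pearson r over clusters, and the 4 genes of each list with most UMIs. Btg3, Cdkn2d and others of a list with 5 or fewer called genes were named after their values were seen. The members and lists were chosen with earlier results of these data known. Promoter sequences are from RefSeq. Python 3.11.15, NumPy 2.4.6 and SciPy 1.17.1 were used.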

Additional observations from a re-analysis of the deposited data

How the results depend on the processing

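No paired analysis was possible because each group has 1 library. Of 17 alternatives, 14 were planned and 3 were added after seeing the data: neurogenic-like cells without the Gal and Dlx1 cluster, RPC-like cells without an Atoh7 UMI, and each class without the 1% of cells with the most UMIs of a gene. Of 65 counts of members past a fold, 54 stayed within 1.5 times the main count and 11 moved. Of 777 single values, 602 stayed within the main counting interval, 172 moved outside it and 3 reversed. A reversal was counted only for values past the fold in the main setting, so changes of direction in other values count as same or moved. The count against cycle genes fell from 6 to 3 with a naming margin of 0.5, which un-names the Gal and Dlx1 cluster, with the members and lists kept in the clustering, and without that cluster. Under those settings the albino Btg2 lowest over highest quartile in neurogenic-like cells turned to 0.17, 0.15 and 0.17 on the log2 scale. The albino over pigmented count rose from 0 to 1 with at least 1000 genes per cell, at resolution 0.6, at resolution 1.5, with marker scores and without the top 1% of cells. It rose to 2 with doublets kept and without the cells of the top immediate-early quartile, and to 3 in cells with Xist and no Y-linked UMI. The causes were not tested. Single values past 1.5-fold included Gadd45g in CMZ-like cells at 1.21 (at least 1000 genes), -0.81 (doublets kept) and -0.99 (resolution 0.6) on the log2 scale, so its direction there is not set. Gadd45a was at -0.87 in CMZ-like cells with doublets kept, 0.10 there at resolution 1.5 and 0.01 with marker scores, and at 0.61 in RPC-like cells with Xist and no Y-linked UMI. The Gadd45a neurogenic over RPC ratio ranged from 24.7 to 42.5 and from 23.0 to 46.7, Btg2 from 4.12 to 6.47 and 4.87 to 7.19, and Gadd45g from 5.21 to 25.8 and 4.75 to 25.8. The RGC over neurogenic ratio ranged from 0.126 to 0.263 and 0.0937 to 0.173 for Gadd45a, 0.0422 to 0.0741 and 0.0384 to 0.0583 for Gadd45g, 0.0856 to 0.140 and 0.0654 to 0.103 for Btg2 and 0.453 to 0.638 and 0.443 to 0.521 for Btg1, always lower. Depth limits Gadd45b, which had at most 42 UMIs in any retinal class.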
